A study of Mus musculus with 17 samples.

Results

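The genes described here code for the enzymes that carry pyruvate into the citrate cycle and run the cycle, measured in the left ventricle of the mouse 4 weeks after myocardial infarction. The list held 38 genes, taken by name from the pyruvate dehydrogenase complex, its kinases and phosphatases, the mitochondrial cycle, the cytosolic partners of citrate, isocitrate and malate, and the enzymes that carboxylate or decarboxylate pyruvate, malate and oxaloacetate. The array annotation gave a probe for 36 of the 38, and 30 had a probe past the filter on the signal, out of 8236 genes of the whole series that did. The mitochondrial pyruvate carrier genes Mpc1 and Mpc2 were not analysed here.

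Female mice of the strain C57/BL6 (C57BL/6N in the methods), aged 8 to 10 weeks, were sham operated (sham, n = 6), or had the left anterior descending coronary artery tied and were left without drug (MI, n = 6) or given valsartan at 1 mg/kg/day in the drinking water (MI+Val, n = 5) for 4 weeks. Valsartan blocks the angiotensin II type 1 receptor. RNA came from the posterior and inferior wall of the left ventricle, which lies away from the infarct, with 1 mouse on each of 17 Illumina MouseWG-6 v.2 arrays. Infarcted mice entered the study only if their early ejection fraction fell in a set range, so the mildest and the most severe infarcts are not represented. All values are normalized log2 intensities, and a difference of 1 is a 2-fold change in intensity.

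Pyruvate dehydrogenase turns pyruvate into acetyl-CoA in the mitochondrial matrix, and the citrate cycle oxidizes that acetyl-CoA to feed the respiratory chain. Pyruvate dehydrogenase kinases switch the complex off by phosphorylation and the phosphatases switch it on again, which sets how much carbohydrate the heart burns in place of fatty acids. Cytosolic malate dehydrogenase is part of the malate-aspartate shuttle, which moves reducing power from the cytosol into mitochondria.

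Some facts about the arrays bear on the values below. The arrays came from 3 chips, and the first held 4 of the 6 MI mice beside 1 sham and 1 MI+Val mouse. Chips 2 and 3 held 1 MI mouse each, beside 3 and 2 sham mice and 2 MI+Val mice on each. A difference within a chip therefore rests on a single mouse in at least 1 of the groups compared. Between 13929 and 15206 probes were detected on each array at a detection p under 0.01, and MI mouse 1 had the fewest and the lowest median signal (90, against 96.4 to 120.3 on the other arrays). The 11 measured cardiomyocyte markers, Myh6 and Pln among them, had summed levels of 96100 to 111000 in sham, 98300 to 108000 in MI and 103000 to 118000 in MI+Val, and none passed the test in any comparison, while the white adipocyte markers did not pass the filter. Of the 8 measured macrophage markers 5 rose in MI vs. sham, and of the 9 measured fibroblast markers 2 rose. Among 2 measured atrial markers, Nppa also rose (1.08, adjusted p = 0.00678) and Myl4 did not pass. Myl4 varied widely between mice, with an SD of 1.45 to 2.45 within the groups. The atrial sum ranged from 8480 to 32200 over sham arrays (median 9400). Tnni2, 1 of 2 measured skeletal muscle markers, was lower (-0.81, adjusted p = 0.0338). Whether atrial or skeletal muscle tissue affected the values below was not tested.

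In MI vs. sham, 2 of the 30 measured genes passed the test and both fell, Pdk2 (pyruvate dehydrogenase kinase 2) and Mdh1 (cytosolic malate dehydrogenase). Among all 8236 genes tested 5.63% passed, 2.32% lower and 3.31% higher in MI, so a share of 2 in 30 lies near the background. The differences of the other members ran from -0.38 to 0.30 and did not pass at an adjusted p under 0.05. The differences were negative for 23 of the 30 genes, against 52.1% of all genes, and their median was -0.22 against -0.01 over all genes. Before adjustment, with p under 0.05, 11 of the 30 were lower in MI and 0 were higher, against 9.93% lower and 9.76% higher over all genes. These 11 were Pdhb, Pdk2, Pdp1, Cs, Idh3g, Suclg1, Sdhc, Mdh2, Aco1, Idh1 and Mdh1.

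**Figure D1:**
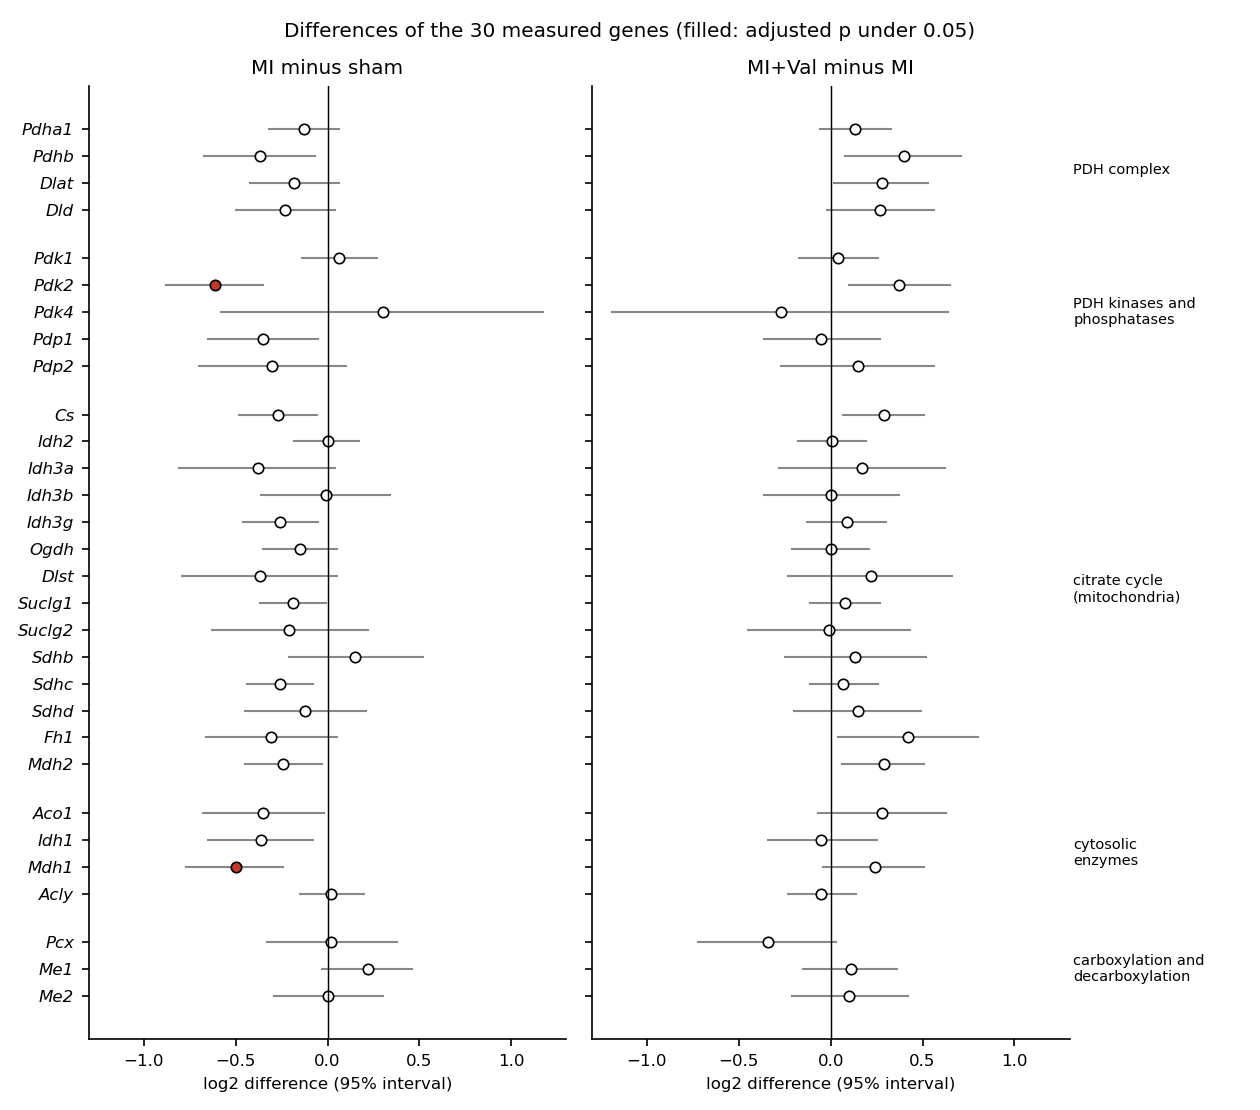
Log2 differences with 95% intervals for the 30 measured genes, ordered by role, as MI minus sham on the left and MI+Val minus MI on the right. Filled points passed an adjusted p of 0.05 over all genes; Pdk2 and Mdh1 are the only filled points, both on the left, and the MI mice enter both panels.

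Pdk2 phosphorylates and inactivates pyruvate dehydrogenase and is abundant in heart muscle. In sham mice its level ran from 9.39 to 9.93 with a median of 9.71, and in MI mice from 8.59 to 9.27 with a median of 9.12. The MI+Val mice stood at 9.26, 9.32, 9.34, 9.47 and 9.80. Every MI mouse lay below every sham mouse, and the MI+Val mice overlapped both. The mean was 9.67 ± 0.21 (SD, n = 6) in sham and 9.06 ± 0.24 (SD, n = 6) in MI, a difference of -0.61 ± 0.13 (SE; 95% interval -0.88 to -0.35; adjusted p = 0.00746), and the intensity fell by 34.6%. The difference stayed negative within each chip, at -0.49, -0.59 and -0.44. With chip as a fixed block the difference was -0.51 (adjusted p = 0.0495). The mean in MI+Val was 9.43 ± 0.22 (SD, n = 5), and its difference from MI of 0.37 ± 0.13 (SE) did not pass after adjustment over all genes (adjusted p = 0.380). Pdk2 also passed the F test over the 3 groups (adjusted p = 0.0265), as did Mdh1 and 4.80% of all genes. Without the arrays of the first chip, 2 MI mice remained and Pdk2 was lower by a similar amount (-0.51) but no longer passed (adjusted p = 0.340).

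Mdh1 reduces oxaloacetate to malate in the cytosol. Its level ran from 10.18 to 10.65 in sham (median 10.45) and from 9.52 to 10.18 in MI (median 9.99). The MI+Val mice stood at 9.90, 9.94, 10.20, 10.38 and 10.38. The highest MI mouse and the lowest sham mouse both printed as 10.18, but the MI mice lay below all sham mice before rounding, and MI+Val overlapped both. The difference in MI vs. sham was -0.50 ± 0.13 (SE; 95% interval -0.77 to -0.24; adjusted p = 0.0239), and in MI+Val vs. MI 0.24 ± 0.13 (SE; adjusted p = 0.624). The F test gave an adjusted p of 0.0785, under its threshold of 0.10. Within the chips the MI vs. sham difference was -0.32, -0.67 and -0.40. The call was less stable than that of Pdk2. A further probe of Mdh1 past the filter gave -0.08 ± 0.13 (SE; adjusted p = 0.785), the mean over both probes gave -0.29 (adjusted p = 0.107), and leaving out MI mouse 1 or 5 or sham mouse 4, 5 or 6 raised the adjusted p to between 0.0507 and 0.0554. The median raw signal in sham was 1477.35 on the probe used and 260.75 on the further probe. With chip as a fixed block the difference on the probe used was -0.43 (adjusted p = 0.138), and without the first chip -0.53 (adjusted p = 0.329).

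**Figure D2:**
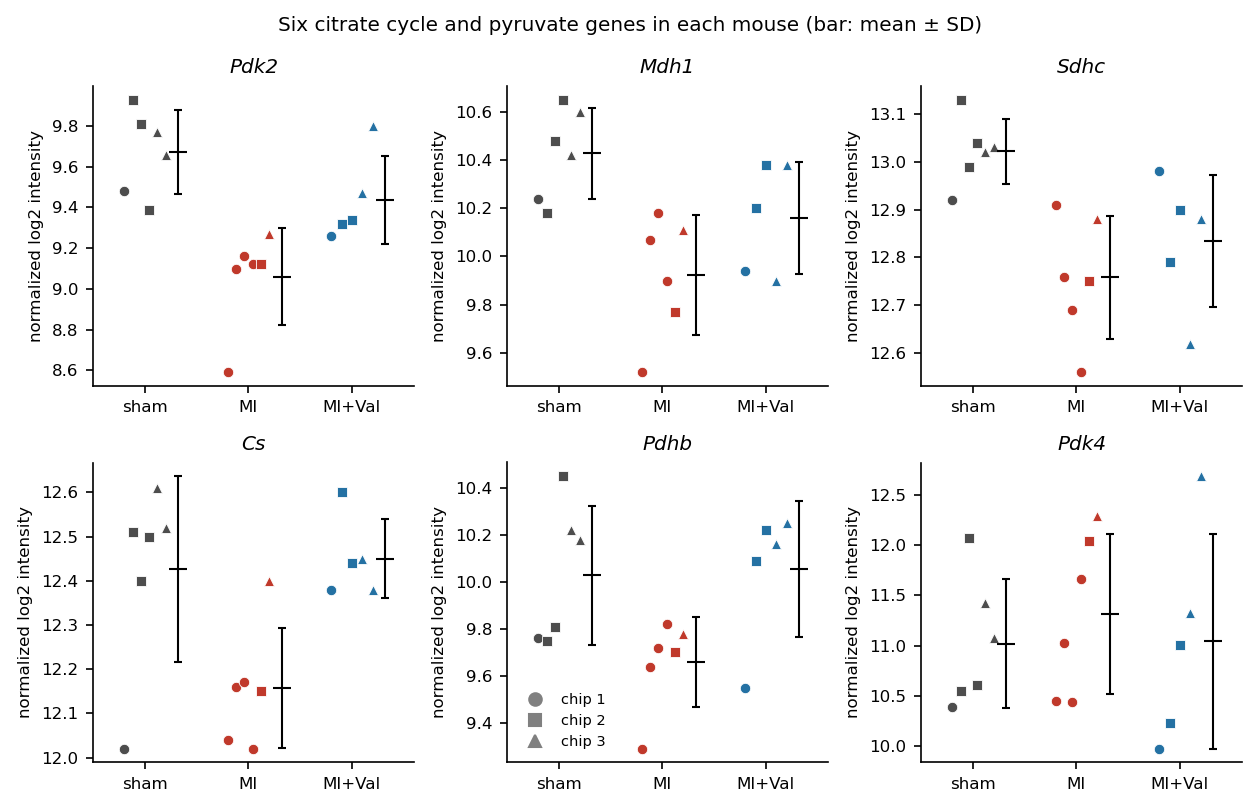
Normalized log2 intensity of Pdk2, Mdh1, Sdhc, Cs, Pdhb and Pdk4 in each mouse of sham (n = 6), MI (n = 6) and MI+Val (n = 5), with the chip as the marker shape and mean ± SD as bars. MI lies below sham without overlap for Pdk2, Mdh1 and Sdhc, sham mouse 1 and MI mouse 6 cross the other mice for Cs, and the groups overlap broadly for Pdk4.

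The RefSeq promoters of Pdk2 and Mdh1 are shown because these are the 2 genes that fell, with CG dinucleotides in capitals. Each is the 250 bases before an annotated start of the gene in GRCm38.p6, on the minus strand, at chr11:95041372-95041621 for Pdk2 and chr11:21571935-21572184 for Mdh1.
Pdk2: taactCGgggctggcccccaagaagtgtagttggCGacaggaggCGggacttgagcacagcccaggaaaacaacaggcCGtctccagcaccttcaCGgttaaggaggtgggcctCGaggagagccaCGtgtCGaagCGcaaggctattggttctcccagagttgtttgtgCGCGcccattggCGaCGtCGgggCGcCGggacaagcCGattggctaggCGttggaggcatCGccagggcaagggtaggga
Mdh1: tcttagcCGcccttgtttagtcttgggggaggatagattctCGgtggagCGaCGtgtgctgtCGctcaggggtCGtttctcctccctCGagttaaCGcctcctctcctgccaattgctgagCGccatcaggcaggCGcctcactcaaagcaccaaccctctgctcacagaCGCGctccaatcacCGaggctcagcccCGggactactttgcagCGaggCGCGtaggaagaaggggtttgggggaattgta
The stretch of Pdk2 held 19 CG dinucleotides and that of Mdh1 held 17, against a median of 6 and an upper quartile of 16 over 32851 such stretches in the table. The other annotated start of Pdk2 held 12. Of 34 listed genes with a promoter window of 300 bases, 1 (Sdhd) held the letters TCAAGGTCA, an estrogen-related receptor site, on either strand, against 0.466% of 27025 genes. The letters ACTTCCGG, an ETS family site, were in the window of 1 of the 34 (Dlst), against 4.31% of all genes. Neither motif was in the windows of Pdk2 or Mdh1.

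All 4 measured genes of the pyruvate dehydrogenase complex had negative differences in MI vs. sham (median -0.20) and none passed the test. Pdhb, a subunit of the part that decarboxylates pyruvate, ran from 9.75 to 10.45 in sham (median 9.99) and from 9.29 to 9.82 in MI (median 9.71). Its MI+Val mice stood at 9.55, 10.09, 10.16, 10.22 and 10.25, so all but MI+Val mouse 1 lay above every MI mouse, while sham and MI overlapped. The difference was -0.37 ± 0.14 (SE; adjusted p = 0.150) in MI vs. sham and 0.40 ± 0.15 (SE; adjusted p = 0.413) in MI+Val vs. MI. The other probes of Pdhb gave -0.31 ± 0.14 and -0.13 ± 0.17 (SE) in MI vs. sham. In MI+Val vs. MI they gave 0.18 ± 0.14 and -0.15 ± 0.18 (SE), and the mean over the probes gave 0.14, so the size and the sign of the second difference depended on the probe. In sham the median raw signal was 1100.6 on the probe used and, in the same order, 3835.75 and 264.75 on the others. Dld, the dihydrolipoyl dehydrogenase shared with other complexes, ran from 8.88 to 9.68 in sham, 8.93 to 9.36 in MI and 9.0 to 9.59 in MI+Val, and its difference was -0.23 ± 0.13 (SE; adjusted p = 0.348) in MI vs. sham. Pdha1, the partner of Pdhb, and Dlat, the acetyl-transferring core, differed by -0.13 ± 0.09 and -0.18 ± 0.12 (SE). The probe of Pdhx, which binds Dld to the core, was detected on 0 of 17 arrays. An undetected probe, here or below, does not show that a gene is silent. A further probe of Dld was also detected on 0 of 17 arrays, while the probe used was detected on all 17.

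The kinases and phosphatases did not share a direction. Pdk4, the kinase induced by fasting and fatty acids, had the largest spread of the 30 genes, with a residual SD of 0.84 against a median of 0.24 for the list and 0.23 for all genes. Its level ran from 10.39 to 12.07 in sham, 10.44 to 12.29 in MI and 9.97 to 12.69 in MI+Val. The groups overlapped almost wholly, and the MI vs. sham difference of 0.30 ± 0.42 (SE; 95% interval -0.58 to 1.17; adjusted p = 0.750) is smaller than the spread between mice. Within the chips it was 0.50, 0.96 and 1.03, each larger than the 0.30 over all arrays and each resting on 1 mouse in a group. The part of the uneven chips in this was not tested. Pdk1, the hypoxia-responsive kinase, differed by 0.06 ± 0.10 (SE; 95% interval -0.14 to 0.27). Pdk3 did not pass the filter: its probe was detected on 2 of 6 sham, 5 of 6 MI and 3 of 5 MI+Val arrays, at median raw signals of 120.35, 136.1 and 124.5.

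Of the phosphatases, Pdp1, the calcium-sensitive form, ran from 7.44 to 8.16 in sham (median 7.97), from 7.35 to 7.83 in MI (median 7.59) and from 7.04 to 7.81 in MI+Val (median 7.69). Only sham mouse 3 lay within the range of the MI mice. The difference was -0.35 ± 0.14 (SE; adjusted p = 0.170) in MI vs. sham, and -0.05 ± 0.15 (SE; adjusted p = 0.951) in MI+Val vs. MI. Pdp2, the other phosphatase, differed by -0.30 ± 0.19 (SE) in MI vs. sham, with its 3 probes past the filter between -0.37 and -0.30.

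For the mitochondrial cycle, 13 of 14 measured genes had negative differences in MI vs. sham, with a median of -0.22, and 0 of the 14 passed the test. Before adjustment 5 were lower with p under 0.05. Cs, citrate synthase, which joins acetyl-CoA to oxaloacetate, ran from 12.02 to 12.61 in sham (median 12.50) and from 12.02 to 12.40 in MI (median 12.15). The MI+Val mice stood at 12.38, 12.38, 12.44, 12.45 and 12.60. Sham mouse 1 (12.02) lay among the MI mice and MI mouse 6 (12.40) among the other groups, so all 3 groups overlapped. The difference was -0.27 ± 0.10 (SE; adjusted p = 0.133) in MI vs. sham and 0.29 ± 0.11 (SE; adjusted p = 0.384) in MI+Val vs. MI. The first value depended on sham mouse 1: without it the difference was -0.35 (adjusted p = 0.0272). On the first chip, where it is the sole sham mouse, MI minus sham was 0.08. With chip as a fixed block the difference was -0.15 (adjusted p = 0.514) in MI vs. sham and 0.18 (adjusted p = 0.789) in MI+Val vs. MI.

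Sdhc anchors succinate dehydrogenase, which serves both the cycle and the respiratory chain, in the inner membrane. It had little spread, from 12.92 to 13.13 in sham (median 13.02), 12.56 to 12.91 in MI (median 12.75) and 12.62 to 12.98 in MI+Val (median 12.88). Every MI mouse lay below every sham mouse. MI and sham did not overlap for 3 of the 30 genes, Pdk2, Mdh1 and Sdhc, against 3.55% of all genes in either direction. The difference of -0.26 ± 0.09 (SE; 95% interval -0.44 to -0.08) missed the threshold after adjustment (adjusted p = 0.0787), and 75th percentile scaling in place of quantile normalization gave -0.34 (adjusted p = 0.0365). The authors' deposited values gave -0.26 (adjusted p = 0.00878). With each mouse left out in turn the adjusted p was 0.0671 to 0.169, so Sdhc passed in none of these fits. Sdhb, the iron-sulphur subunit, was the 1 gene whose probes past the filter differed in direction in MI vs. sham. Its most variable probe gave 0.15 ± 0.17 (SE), and its other probes gave -0.23 ± 0.10 (SE; adjusted p = 0.227) and -0.28 ± 0.08 (SE; adjusted p = 0.0517). The first of these stood for Sdhb in the counts, at a median raw signal in sham of 169.85, against 6457.4 and 8232.65 on the others. With the brightest probe standing for each gene, Sdhb was lower in MI vs. sham and passed, beside Pdk2 and Mdh1. These were 3 of the 30 genes, beside 480 of all 8236 genes in that setting. Sdhd, the other membrane anchor, differed by -0.12 ± 0.16 (SE), and the probe of Sdha, the flavoprotein subunit, was detected on 0 of 17 arrays.

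Of the other enzymes of the mitochondrial cycle none passed in MI vs. sham, and for several the size of the difference depended on the probe. Idh3a, a subunit of the NAD-dependent isocitrate dehydrogenase, differed by -0.38 ± 0.20 (SE) on the probe used and -0.07 ± 0.09 (SE) on its other probe. Idh3g, of the same enzyme, gave -0.26 ± 0.10 (SE) on the probe used and -0.14 ± 0.08 (SE) on its other probe, and Idh3b, a further subunit, gave -0.01 ± 0.17 and -0.09 ± 0.11 (SE). The Idh3b probe used (the first value) was detected on 12 of 17 arrays. Its median raw signal in sham was 131.35, against 1051.65 on the other probe. Idh2, the NADP-dependent mitochondrial enzyme, differed by -0.00 ± 0.09 (SE; 95% interval -0.18 to 0.17). Ogdh, of the oxoglutarate dehydrogenase complex, differed by -0.15 ± 0.10 (SE). Dlst, of the same complex, differed by -0.37 ± 0.20 (SE) on the probe used and by -0.32 ± 0.16, -0.16 ± 0.08 and -0.12 ± 0.08 (SE) on its other probes. The Dlst probe used had a median raw signal in sham of 187.75, against 442.75, 6688.05 and 7218.75 on the others. Suclg1, which makes succinyl-CoA ligase with either partner subunit, differed by -0.19 ± 0.09 (SE) on the probe used and -0.10 ± 0.08 (SE) on its other probe, and Suclg2, the GTP-forming partner, by -0.21 ± 0.20 (SE) on the probe used and -0.34 ± 0.11 (SE; adjusted p = 0.0689) on its other probe. The Suclg2 probe used was detected on 14 of 17 arrays, at a median raw signal in sham of 133.25 against 1682.05 on the other. Fh1, fumarase, differed by -0.31 ± 0.17 (SE) on the probe used and -0.12 ± 0.09 (SE) on its other probe, and Mdh2, mitochondrial malate dehydrogenase, by -0.24 ± 0.10 (SE). The probe of Sucla2, the ATP-forming partner of Suclg1, was detected on 2 of 17 arrays and did not pass the filter.

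**Figure D3:**
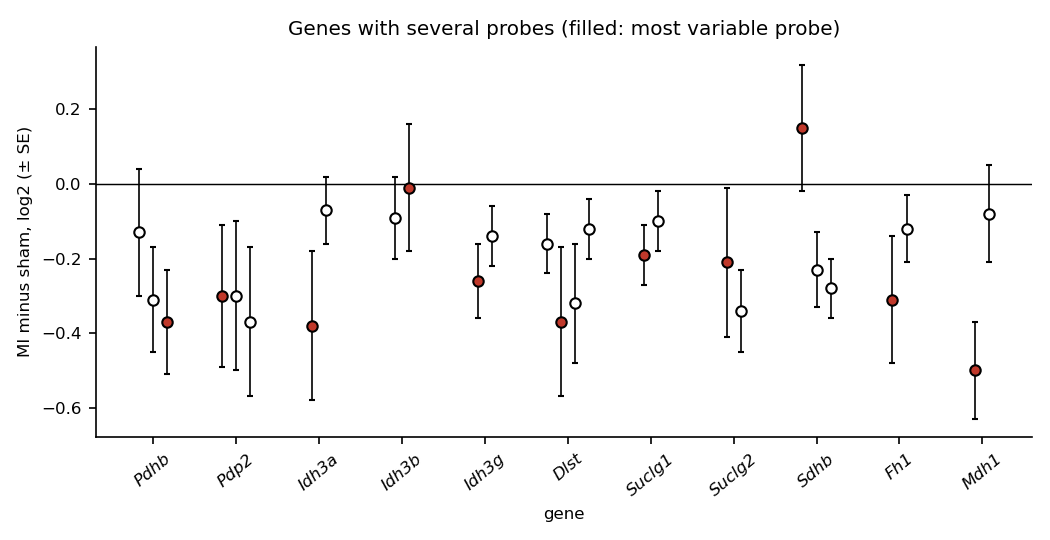
MI minus sham on the log2 scale, ± SE, for every probe past the filter of the 11 genes with more than 1 such probe. The filled point is the most variable probe, which stands for the gene; it lies apart from the other probe for Mdh1 (-0.50 against -0.08) and opposite in sign for Sdhb (0.15 against -0.23 and -0.28).

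Over single probes, 2 of 46 of these genes' probes passed in MI vs. sham, against 4.96% of 11897 probes. The differences were negative for 39 of the 46, against 52.4% of all probes, and their median was -0.20 against -0.01.

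Outside the mitochondrion, Idh1, which makes NADPH from isocitrate in the cytosol, ran from 9.30 to 10.09 in sham (median 9.60) and from 8.85 to 9.44 in MI (median 9.30). The MI+Val mice stood at 8.89, 9.04, 9.25, 9.31 and 9.51, and all 3 groups overlapped. The difference from sham was -0.36 ± 0.13 (SE; adjusted p = 0.126) in MI and -0.41 ± 0.14 (SE; adjusted p = 0.444) in MI+Val. Aco1, the cytosolic aconitase that also binds iron-responsive RNA elements, differed by -0.35 ± 0.16 (SE) in MI vs. sham. Acly, which splits exported citrate into acetyl-CoA and oxaloacetate, differed by 0.02 ± 0.08 (SE; 95% interval -0.15 to 0.20).

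None of the 3 measured carboxylating and decarboxylating enzymes had a negative difference in MI vs. sham. Me1, cytosolic malic enzyme, ran from 7.49 to 8.07 in sham (median 7.96), 7.85 to 8.24 in MI (median 8.09) and 7.93 to 8.47 in MI+Val (median 8.21). The groups overlapped, and the difference was 0.22 ± 0.12 (SE; adjusted p = 0.321) in MI vs. sham and 0.32 ± 0.12 (SE; adjusted p = 0.519) in MI+Val vs. sham. Pcx, pyruvate carboxylase, which refills the cycle with oxaloacetate, ran from 5.07 to 6.09 in sham, 5.53 to 6.03 in MI and 4.83 to 5.77 in MI+Val. It differed by 0.02 ± 0.17 (SE) in MI vs. sham and by -0.34 ± 0.18 (SE; adjusted p = 0.581) in MI+Val vs. MI. Me2, mitochondrial malic enzyme, differed by 0.00 ± 0.14 (SE) in MI vs. sham, and the probes of Me3 and Pck2 were detected on 0 of 17 arrays. The probes used were detected on 15 arrays for Pcx and 16 for Me2, at median raw signals in sham of 143.05 and 142.45.

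In MI+Val vs. MI, 0 of the 30 genes passed the test, as did 0% of all genes, and 0 of the 46 probes passed against 0.00841% of all probes. Before adjustment 6 of the 30 were higher in MI+Val and 0 were lower, against 4.50% and 4.72% of all genes. These were Pdhb, Dlat, Pdk2, Cs, Fh1 and Mdh2, with differences of 0.28 to 0.42 on the probes used. The highest, 0.42 ± 0.18 (SE) for Fh1, was 0.05 ± 0.09 (SE) on the other probe of Fh1, and Pdhb also depended on its probe, as given above. The median over the 30 genes was 0.12 against 0.00 over all genes, and 6 of the 30 differences were negative, against 48.9% of all genes. By role the medians were 0.27 for the dehydrogenase complex, 0.04 for its kinases and phosphatases, 0.11 for the mitochondrial cycle, 0.10 for the cytosolic enzymes and 0.10 for the carboxylating and decarboxylating enzymes. No gene of the 30 separated the MI and MI+Val mice without overlap, against 1.12% of all genes. The same MI mice enter this comparison and MI vs. sham, so the values of the 2 comparisons are not independent.

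In MI+Val vs. sham, 0 of the 30 genes passed the test, against 0.0121% of all genes, and 0 of the 46 probes, against 0.0252%. Before adjustment 3 were lower (Pdp1, Sdhc and Idh1) and 1 was higher (Me1), against 3.50% and 3.75% of all genes. The median was -0.01, against -0.00 over all genes, and 16 of the 30 differences were negative, against 50.6%. No gene of the 30 separated these groups without overlap, against 0.777% of all genes. The mean of MI+Val lay between those of sham and MI for 12 of the 30 genes, against 46.4% of all genes.

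**Figure D4:**
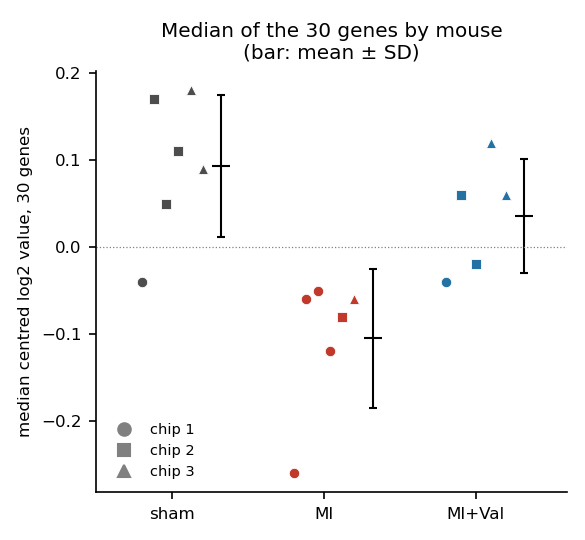
Median over the 30 genes of the log2 value centred on each gene's mean over all mice, 1 point per mouse, by group and chip, with mean ± SD. The MI mice lie between -0.26 and -0.05, sham between -0.04 and 0.18 and MI+Val between -0.04 and 0.12.

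Over single mice, the median of the 30 centred genes ran from -0.04 to 0.18 in sham (median 0.10), from -0.26 to -0.05 in MI (median -0.07) and from -0.04 to 0.12 in MI+Val (median 0.06). The lowest value belonged to MI mouse 1, the array with the lowest signal, and without it the median difference of the 30 genes was -0.19 in MI vs. sham and 0.11 in MI+Val vs. MI. The lowest sham and the lowest MI+Val mouse were both on the first chip. Within the 3 chips the median of the 30 genes was -0.14, -0.22 and -0.16 in MI minus sham, and 0.07, 0.12 and 0.05 in MI+Val minus MI. Summed macrophage markers were 2970 to 4210 in sham, 4650 to 8120 in MI and 3860 to 5460 in MI+Val, summed fibroblast markers were 2190 to 2840, 3160 to 3760 and 2690 to 3330, and their part in the result was not tested. Of the 11 cardiomyocyte markers, 8 had negative differences in MI vs. sham (median -0.07) and 3 were lower before adjustment with p under 0.05. Among these, Pln, which restrains the calcium pump, gave -0.43 ± 0.14 (SE; adjusted p = 0.0852) and Myh6, the adult myosin heavy chain, gave -0.43 ± 0.16 (SE; adjusted p = 0.129). In MI+Val vs. MI the median of these markers was 0.18, with 3 of 11 higher before adjustment, beside a median of 0.12 for the 30 enzyme genes, and the markers' part in the result was not tested. In bulk tissue, fewer cells of a type and less RNA per cell cannot be told apart.

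Genes next to these enzymes were counted in the same way, against the 5.63% of all genes that passed in MI vs. sham and the 2.32% that were lower. Of 3 measured genes of lactate and alanine metabolism, Gpt, which makes pyruvate from alanine, fell by 0.63 on the log2 scale in MI vs. sham (adjusted p = 0.00156). Of 5 measured genes of the malate-aspartate shuttle and glutamate entry, Slc25a12, the mitochondrial aspartate-glutamate carrier that works in the same shuttle as Mdh1, fell by 0.41 (adjusted p = 0.0328). Of 11 measured targets of the fatty acid receptors PPAR, Acot1, an acyl-CoA thioesterase, fell by 1.47 (adjusted p = 0.00129) and Slc27a1, a fatty acid transporter, fell by 0.60 (adjusted p = 0.0191). None of the genes in these lists rose, and none of the 13 measured transcription factors and coactivators of oxidative genes, of 7 genes of acetyl-CoA supply, of 2 carriers of citrate and dicarboxylates or of 11 lipoylation and assembly partners passed in MI vs. sham. The lowest p among the coactivators and factors belonged to Esrrg, an estrogen-related receptor (-0.33 ± 0.13, SE; adjusted p = 0.179). In the acetyl-CoA list it belonged to Acat1, which forms and cleaves acetoacetyl-CoA (-0.56 ± 0.17, SE; adjusted p = 0.0657), in the lipoylation list to Lipt2, a lipoyl transferase (-0.42 ± 0.13, SE; adjusted p = 0.0658), and among the carriers to Slc25a10 (0.36 ± 0.14, SE; adjusted p = 0.155). In MI+Val vs. MI none of the genes in these lists passed.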

How the data were processed

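Each array measured 1 mouse. The authors deposited raw probe intensity values with a detection p-value for each probe, as quantified by GenomeStudio, and a table of log2 values made with the lumi package in R 3.0.1 by variance stabilizing transformation and robust spline normalization. Of 45281 probes, 34885 carried 1 gene symbol in the array annotation, 18 several and 10378 none. Starting from the intensities, neqc (limma 3.58.1, R 4.3.3) estimated the background through the detection p-values and, with an offset of 16, returned quantile normalized log2 values. Genes with a 33rd percentile of the signal of at least 125 were kept, with the most variable probe (interquartile range) for each gene. limma (lmFit, eBayes) was fitted to all 17 arrays with 3 groups, and p-values were adjusted by Benjamini-Hochberg over all 8236 genes, with thresholds of 0.05 and, for the F test, 0.10. A second fit covered 11897 probes. The script was tested on simulated data. The number of arrays limits the precision.

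The members and lists were chosen with earlier results of these data known. Full values are given for members that passed a test and, in each role, for the 2 whose p was lowest against sham in MI and the 1 whose p was lowest against MI in MI+Val; Pdk4 and the probes of Sdhb were added after their values were seen. Alternatives covered background, normalization, filter, probe choice, chip, replicate number, array weights, test and each mouse left out; the fit without the first chip was chosen after seeing the data. Of 16 same-numbered pairs of mice in different groups, 4 correlated over 0.1 (range -0.20 to 0.43). The main fit used no pairing by number, and a fit with the number as a block is given below. Elsewhere the numbers are used only to name the mice.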

Additional observations from a re-analysis of the deposited data

Results flagged for a closer look

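In 12 of 90 sets of values, 1 gene in 1 group, a single mouse lay far from the others of its group for the size of that group. The nominal rate of this rule, for normal and independent values, is about 1 in 20. The share over all genes was not computed, so the count cannot tell whether this is particular to these genes. MI mouse 1, whose array had the lowest signal, was the lowest of its group for Pdhb (9.29, next 9.64), Pdk2 (8.59, next 9.10), Suclg1 (12.20, next 12.38) and Idh1 (8.85, next 9.24). Sham mouse 1, on the same chip, was the lowest of its group for Cs (12.02, next 12.40), Idh3b (4.82, next 5.33) and Dlst (5.42, next 6.33). MI+Val mouse 1, also on that chip, was the lowest of its group for Pdhb (9.55, next 10.09) and Aco1 (5.41, next 6.07). Sham mouse 3 was the lowest of its group for Pdp1 (7.44, next 7.89) and Me2 (5.13, next 5.75), and MI+Val mouse 2 for Pcx (4.83, next 5.52). All 12 were the lowest value of their group.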

How the results depend on the processing

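Pdk2 was the steadier of the 2 calls: it passed in MI vs. sham with each mouse left out (adjusted p between 0.00429 and 0.0208). Leaving out single mice gave 1 to 4 genes passing in MI vs. sham (4 without sham mouse 1: Pdk2, Cs, Dlst and Mdh1), 1 to 3 in the F test and 1 to 5 probes, 0 in the other comparisons, and medians of -0.23 to -0.18 in MI vs. sham, 0.09 to 0.13 in MI+Val vs. MI and -0.10 to 0.02 in MI+Val vs. sham. Without the first chip 0 genes and 0 probes passed in MI vs. sham and 0 in the F test; this left 2 MI mice, and Mdh1 was at -0.53 and Pdk2 at -0.51. In MI vs. sham, 1 gene (Pdk2) passed with no filter, a filter on detection, the mean over probes and chip as a fixed block. With the brightest probe for each gene 3 passed (Pdk2, Sdhb and Mdh1), and the F test called the same 3. The F test called 4 with the authors' values, 1 with no filter, the detection filter, the mean over probes or an adjusted p under 0.05, and 0 with chip as a fixed block. The median in MI vs. sham was -0.13 with no filter and -0.14 within the first chip. Probes passing in MI vs. sham were 5 with no background correction, 4 with an offset of 50, the authors' values or array weights, and 1 with no filter or chip as a fixed block. Over these alternatives, single mice left out included, the median of the genes kept its sign in MI vs. sham (-0.26 to -0.13) and in MI+Val vs. MI (0.05 to 0.13), and lay between -0.10 and 0.02 in MI+Val vs. sham. By the methods' t-test at their unadjusted threshold, 1 gene (Cs) and 1 probe passed in MI+Val vs. MI. Direction turned for Mdh1 in MI vs. sham (0.16 with no filter and 0.16 with the detection filter) and Sdhc (0.06 with no filter), where a probe below the signal filter stood for the gene, and within the first chip for Cs in MI vs. sham (0.08) and Pdhb in MI+Val vs. MI (-0.07). Sdhc passed in MI vs. sham with no background correction (adjusted p = 0.0269), array weights (0.0469) and the methods' t-test after Benjamini-Hochberg (0.0394). With the replicate number as a block, 4 probes passed in MI vs. sham in place of 2, the count of genes stayed at 2, and the F test called 3; 6 of 17 arrays correlated best with their own number. Except where a reason is given, the cause was not tested.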
